A study of Mus musculus with 6 samples.

Results

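Gas5, Snhg1, Snhg3, Snhg5, Snhg6, Snhg8 and Snhg12 are genes of long noncoding RNAs whose introns carry small nucleolar RNAs (snoRNAs). They were found by name in the deposited gene table, where each has 1 row, so that 7 of 34745 rows are described here. RNA was sequenced from RAW 264.7 cells, a mouse macrophage line, in 3 libraries of cells given the solvent DMSO and 3 of cells given BPAP (bisphenol AP), which is related to bisphenol A. No other agent or genetic change is named in the labels for either group, and the sources used here do not give a dose, an exposure time or whether the cultures were separate. Each p-value therefore rests on the spread among the libraries of a group, and that spread may be technical. The design text asks which genes respond to BPAP in macrophages, and the comparison below is BPAP against DMSO for these host genes.

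A snoRNA host gene is transcribed as a long precursor. Splicing releases the introns, from which mature snoRNAs are trimmed and packed with proteins to guide the chemical modification of ribosomal RNA. The spliced exons of noncoding hosts hold no long reading frame. Many host transcripts start with a pyrimidine tract (a TOP start, shared with ribosomal protein mRNAs), load onto ribosomes and are then destroyed by nonsense-mediated decay (NMD). Gas5 takes its name from growth-arrested cells, in which its RNA accumulates.

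GENCODE M21 lists 29 snoRNA entries inside the 7 genes on their own strand, some of them overlapping versions of 1 snoRNA. Gas5 (chromosome 1, 161034422 to 161038539, plus strand, GRCm38) holds 10, among them Snord47, Snord78 and Snord80, which are of the box C/D class that guides ribose methylation. Snhg1 (chromosome 19, 8723475 to 8726443, plus) holds 8, including Snord22. Snhg5 (chromosome 9, 88521050 to 88522929, minus) holds Snord50a and Snord50b, and Snhg6 (chromosome 1, 9941959 to 9944118, minus) holds Snord87. Box H/ACA snoRNAs, which guide pseudouridylation or, for Snora73, take part in cleavage of the ribosomal precursor, lie in the other 3. Snhg3 (chromosome 4, 132348014 to 132353686, minus) holds Snora73a and Snora73b, Snhg8 (chromosome 3, 123507552 to 123508404, minus) holds Snora24, and Snhg12 (chromosome 4, 132308678 to 132311024, plus) holds Snora16a, Snora44 and Snora61 together with the box C/D Snord99. The deposited table has 0 rows under the names of these snoRNAs, so the values below are those of the host rows, which may include reads from snoRNA sequence.

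The start sites are shown because TOP starts are known from this class of gene and because several of the members hold the same letters there. RefSeq's promoter table (GRCm38.p6) matched 6 of the 7 members. For each, 45 bases before the start and 30 from it on are printed 5′ to 3′ on the gene's strand. Capitals mark TATAA or, on the other strand, TTATA within 45 to 16 bases before the start, and the longest unbroken run of C and T from 10 bases before the start to 30 bases into the transcript. For Gas5, which has windows at 2 starts, the second is shown. The windows are chr1:161035121-161035195 for Gas5, chr19:8723442-8723516 for Snhg1, chr4:132353657-132353731 for Snhg3, chr9:88522868-88522942 for Snhg5, chr3:123508307-123508381 for Snhg8 and chr4:132308633-132308707 for Snhg12.
Gas5: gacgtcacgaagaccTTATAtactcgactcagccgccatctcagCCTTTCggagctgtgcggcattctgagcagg
Snhg1: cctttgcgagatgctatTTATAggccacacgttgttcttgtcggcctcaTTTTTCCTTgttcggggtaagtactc
Snhg3: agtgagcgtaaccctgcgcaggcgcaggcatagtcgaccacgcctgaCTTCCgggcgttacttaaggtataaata
Snhg5: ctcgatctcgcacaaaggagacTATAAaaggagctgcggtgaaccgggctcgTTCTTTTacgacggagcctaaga
Snhg8: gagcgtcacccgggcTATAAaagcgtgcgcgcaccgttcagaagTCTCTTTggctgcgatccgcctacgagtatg
Snhg12: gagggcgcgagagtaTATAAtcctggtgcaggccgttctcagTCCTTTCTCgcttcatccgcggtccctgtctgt
The TATAA letters were found in 5 of the 7 member windows, those of Gas5 (1 of its 2 starts), Snhg1, Snhg5, Snhg8 and Snhg12, against 4.87% of the 32851 windows in the table. They began 23 to 30 bases before the start. A run of at least 6 pyrimidines was found in the same 5 windows, from 6 in Gas5 to 9 in Snhg1 and Snhg12, against 35.2% of all windows. Relative to the start, the run began at -1 in Gas5 and Snhg8 and at -3 in Snhg12. It began at 4 in Snhg1 and at 7 in Snhg5, so in these genes it lay past the annotated start. The longest run in Snhg3 was 5 bases, the median of all windows. Its printed window also holds the TATAA letters past the annotated start, outside the bases searched for them, so they were not counted. The Gas5 window not shown had no TATAA match and a longest run of 3 bases. These motifs were chosen after the sequences and values were seen, and a match describes letters only.

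In BPAP-treated cells the RNA of 2 of the 7 host genes rose, that of Snhg8 by 1.46-fold and that of Snhg1 by 1.29-fold, and 0 fell. The other 5 had fold changes of 1.06 (Snhg6), 1.16 (Gas5), 1.17 (Snhg3), 1.23 (Snhg5) and 1.36 (Snhg12) and did not pass an adjusted p of 0.05. Single genes were tested with edgeR (quasi-likelihood), and p was adjusted by Benjamini and Hochberg's method over the 11711 genes that passed its expression filter, which all 7 members passed. Of those genes 31.7% were called in either direction and 16.2% higher in BPAP, so 2 of 7 (28.6%) is near the share of genes called in the whole table. Among genes of long noncoding types 16.8% were called, and among genes with exons shorter than the median 30.5%. Under an unadjusted p of 0.05, 4 of the 7 were higher and 0 lower, with 3 and 0 in DESeq2 and 4 and 0 in limma-voom. The share of all genes under that unadjusted threshold was not counted, here or for the unadjusted counts given below. In the edgeR fit it is at least the 31.7% in either direction and 16.2% higher that were called after adjustment. These counts therefore describe the members alone. The median log2 fold change of the members was 0.30, against 0.02 for all genes tested.

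The level of Snhg8 in CPM (counts scaled to a common library total, with TMM normalisation) was 8.81, 12.1 and 10.1 in DMSO libraries 1 to 3 and 13.5, 17.7 and 14.2 in BPAP libraries 1 to 3. Every BPAP library lay above every DMSO library. The counts behind these levels were 96 to 155 in DMSO and 166 to 213 in BPAP. The group means were 10.4 ± 1.67 and 15.1 ± 2.26 CPM (SD, n = 3 per group), a log2 fold change of 0.54 (SE 0.16, edgeR adjusted p = 0.0297). The 95% interval, not adjusted for the number of genes, ran from 0.18 to 0.91. Without DMSO 1 the adjusted p was 0.112, without DMSO 3 0.0862 and without BPAP 2 0.0782.

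Snhg1 stood at 25.3, 28.6 and 30.8 CPM in DMSO and at 33.5, 37.7 and 38.1 CPM in BPAP. Its groups did not overlap either. Counts were 276 to 437 and 412 to 465. The means were 28.2 ± 2.74 and 36.4 ± 2.54 CPM (SD, n = 3 per group), and the log2 fold change was 0.37 (SE 0.11, 95% interval 0.12 to 0.62, edgeR adjusted p = 0.0319). The adjusted p was 0.116 without DMSO 1, 0.0825 without DMSO 2, 0.0558 without BPAP 2 and 0.086 without BPAP 3.

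Gas5, the most abundant of the 7, measured 102, 115 and 121 CPM in DMSO and 122, 131 and 140 CPM in BPAP. The groups did not overlap, though BPAP 1 lay just above DMSO 3. The log2 fold change was 0.22 (SE 0.10, 95% interval 0.00 to 0.43, edgeR adjusted p = 0.112), which is 1.16-fold with an upper bound of 1.35-fold. Gas5 alone supplied 54.3% to 58.7% of the counts of the 7 genes in each library. Summed over the 7, the level was 182 to 210 CPM in DMSO and 219 to 249 CPM in BPAP.

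**Figure D1:**
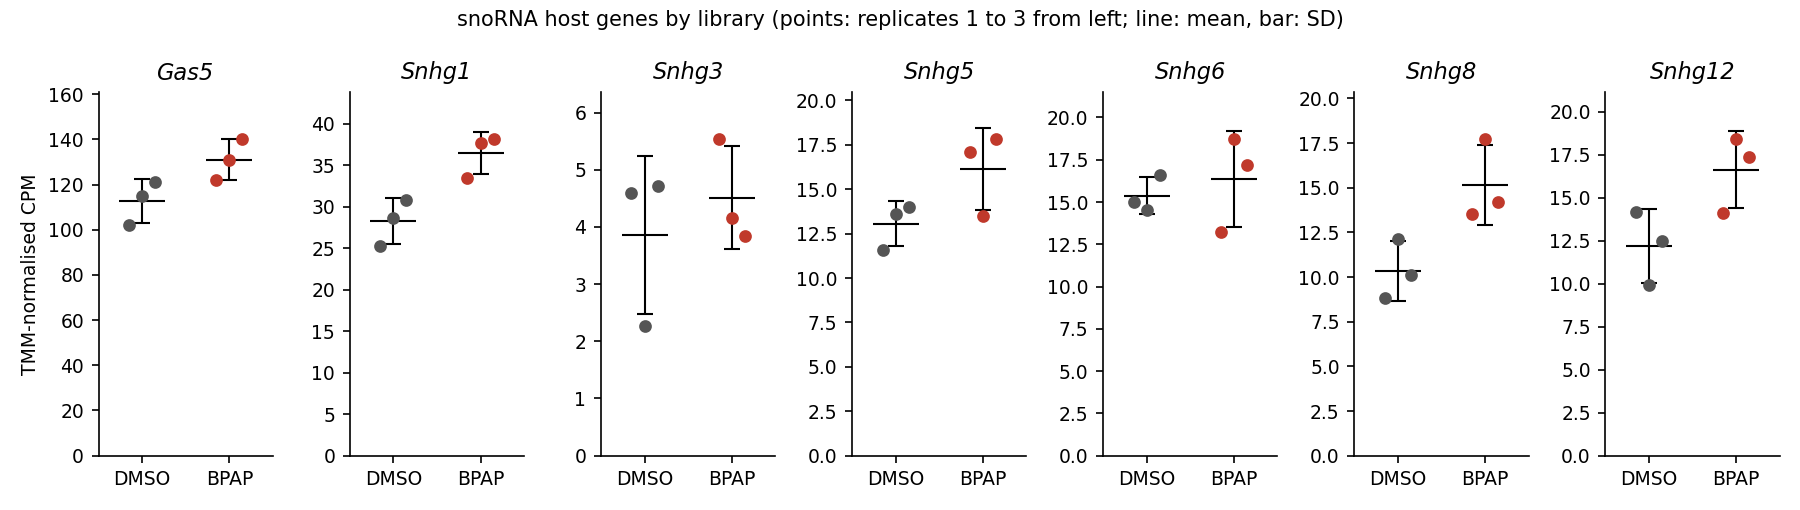
TMM-normalised CPM (vertical axes, each starting at 0) of the 7 host genes in 3 DMSO and 3 BPAP libraries, with each library as a point, the mean as a line and the SD as a bar. The groups do not overlap in Gas5, Snhg1 and Snhg8 and overlap in the other 4 genes.

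Snhg12 was at 14.2, 9.93 and 12.5 CPM in DMSO and 14.1, 18.4 and 17.4 CPM in BPAP. BPAP 1 lay just under DMSO 1, so the groups overlapped. The log2 fold change was 0.45 (SE 0.16, 95% interval 0.08 to 0.81, edgeR adjusted p = 0.0602). Snhg5 was at 11.6, 13.6 and 14 CPM in DMSO and 17.1, 13.5 and 17.8 CPM in BPAP. BPAP 2 lay within the DMSO range, and the other BPAP libraries above it. Its log2 fold change was 0.30 (SE 0.15, 95% interval -0.03 to 0.63, edgeR adjusted p = 0.145).

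Snhg6 gave 15, 14.5 and 16.6 CPM in DMSO and 13.2, 18.7 and 17.2 CPM in BPAP. The BPAP libraries held both the lowest and the highest value. Its log2 fold change of 0.09 had a 95% interval from -0.24 to 0.42 (edgeR adjusted p = 0.68), which bounds a rise at 1.34-fold and a fall at 0.845 of the DMSO level. Snhg3, with only 29 to 68 counts in a library, gave 4.59, 2.27 and 4.72 CPM in DMSO and 5.53, 4.16 and 3.85 CPM in BPAP. DMSO 2 was the lowest and the other libraries ran from 3.85 to 5.53 CPM. The interval of its log2 fold change, -0.40 to 0.85, holds changes as large as that of Snhg8, so these libraries bound its change only loosely.

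The values of 3 of the 7 members (42.9%) did not overlap between groups and were higher in BPAP, against 25.2% of all tested genes not overlapping in that direction and 49.0% in either. In 4 of the 7 the lowest DMSO library was DMSO 1, and the share of all genes for which this holds was not counted. DMSO 1 had 10.8% of its counts in mitochondrial genes, against 6.53% to 7.55% in the others. Without it 0 members passed edgeR's test at an adjusted p of 0.05 (3 under an unadjusted p of 0.05). Without DMSO 2 or DMSO 3, 1 member passed in each case. Over all genes 1901 were called higher with all libraries, 1244 without DMSO 1, 1275 without DMSO 2 and 1338 without DMSO 3. BPAP 2 also stood apart within its group: a chi-square per degree of freedom over genes with at least 10 counts in a pair of libraries was 18.2 and 17.3 against the other BPAP libraries, which gave 8.31 between them, while DMSO 1 gave 19 and 20 against DMSO libraries that gave 6.64. BPAP 2 held the highest value of Snhg6, Snhg8 and Snhg12, and without it Snhg5 was the 1 member called. The part of either library's make-up in the result was not tested. The spread within a group differed among the members. In Gas5 the coefficient of variation was 8.43% in DMSO and 6.88% in BPAP, above the 2.64% and 2.50% that counting alone gives. For Snhg3 it was 35.7% in DMSO (14.3% from counting) and 19.8% in BPAP (13.5%). For Snhg6 it was 7.13% in DMSO (7.16% from counting) but 17.5% in BPAP (7.09%). RNA was taken from whole cultures, so more cells with the RNA and more RNA per cell cannot be told apart.

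Total counts were 11084705 to 13806559 per library. Of the macrophage markers, all 10 symbols (11 rows, since Itgam has 2) passed the expression filter, and their summed level was 5140 to 5800 CPM in DMSO and 5760 to 6210 CPM in BPAP. Of these rows 5 rose and 2 fell, and with the trend with exon length and GC content taken out, as described below for the members, 1 rose and 1 fell. Markers of fibroblasts, epithelium and lymphocytes all failed the filter: no library had over 12, 1 and 2 counts of any of them, and 2, 4 and 3 of the 5 in each list were at 0 throughout. Across all tested genes, which are not independent replicates, the deviation of each library from the gene mean had a Spearman correlation with merged exon length of 0.32 to 0.33 in DMSO and -0.35 to -0.31 in BPAP. Short genes were thus more often higher in BPAP: of the 5829 tested genes with merged exons under the median of 4298 bases, 24.5% were called higher and 6.02% lower.

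All 7 members fall in that shorter part, with merged exons of 853 (Snhg8) to 3760 bases (Gas5). When the trend of each library with the length and GC content of exons was taken out, 1 of the 7 members was called, Snhg1 (log2 fold change 0.40, edgeR adjusted p = 0.0402), where 23.0% of all genes were called. The median log2 fold change of the members was then 0.20, and the matching median of all genes was not taken. The value of Gas5 moved little, to 0.20. That of Snhg8, the shortest, fell to 0.20 (edgeR adjusted p = 0.394). Those of Snhg12 and Snhg5 fell to 0.26 and 0.12, and those of Snhg3 and Snhg6 turned to -0.05 and -0.16.

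**Figure D2:**
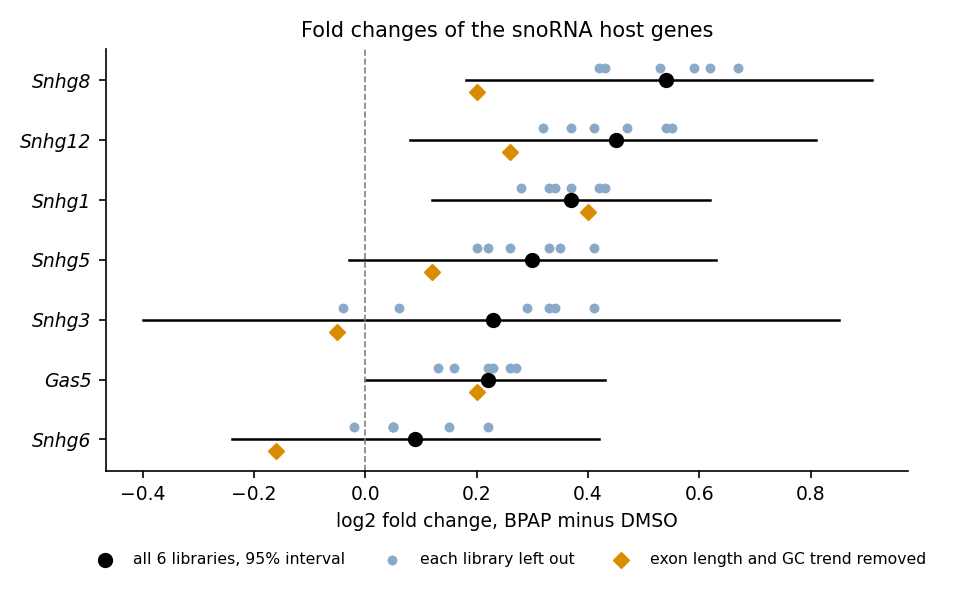
Log2 fold change, BPAP minus DMSO (horizontal axis), of each host gene with its 95% interval from all 6 libraries (black), with each library left out in turn (blue), and with the trend with exon length and GC content removed (orange diamonds). Snhg1 stays near 0.4 when the trend is removed, while Snhg8 moves from 0.54 to 0.20 and Snhg6 from 0.09 to -0.16.

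Levels were compared between the genes per kilobase. Dividing CPM by merged exon length, each annotated base counted once, the order in DMSO was Gas5 at 30 ± 2.53, Snhg6 at 13.4 ± 0.956, Snhg8 at 12.1 ± 1.95, Snhg1 at 9.51 ± 0.923, Snhg5 at 7.55 ± 0.759, Snhg12 at 5.09 ± 0.899 and Snhg3 at 3.91 ± 1.40 CPM per kilobase (SD, n = 3). The DMSO libraries of Snhg6 and Snhg8 overlapped, as did those of Snhg8 and Snhg1 and those of Snhg12 and Snhg3. Other neighbours in that order did not overlap. In BPAP Snhg8, at 17.7 ± 2.65, stood above Snhg6, at 14.3 ± 2.50, with overlapping libraries. Against all tested genes by CPM, without regard to length, Gas5 was at the 85.7th percentile, Snhg1 at the 51.1st and Snhg3 at the 14.3rd.

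The deposited FPKM values gave another order. In DMSO they were 9.76 ± 1.04 for Gas5, 7.12 ± 0.617 for Snhg6, 5.98 ± 1.05 for Snhg8, 3.75 ± 0.606 for Snhg12, 2.58 ± 0.317 for Snhg5, 2.57 ± 0.307 for Snhg1 and 2.12 ± 0.752 for Snhg3 (SD, n = 3). Snhg1, above Snhg5 and Snhg12 per merged exon length, was level with Snhg5 within the spread and below Snhg12 in FPKM. The length behind these FPKM values, recovered as count over FPKM and library total, was 11131 bases for Snhg1, whose whole span is 2969 bases, and 11685 for Gas5, whose span is 4118. For Snhg12 it was 3289 bases against a span of 2402 in GENCODE, whose start, 132308623, lies before that in the deposited table, and for Snhg8 1752 against 853. GENCODE lists 18 transcripts of Snhg1 and 25 of Gas5, of which 14 and 20 are retained-intron forms.

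**Figure D3:**
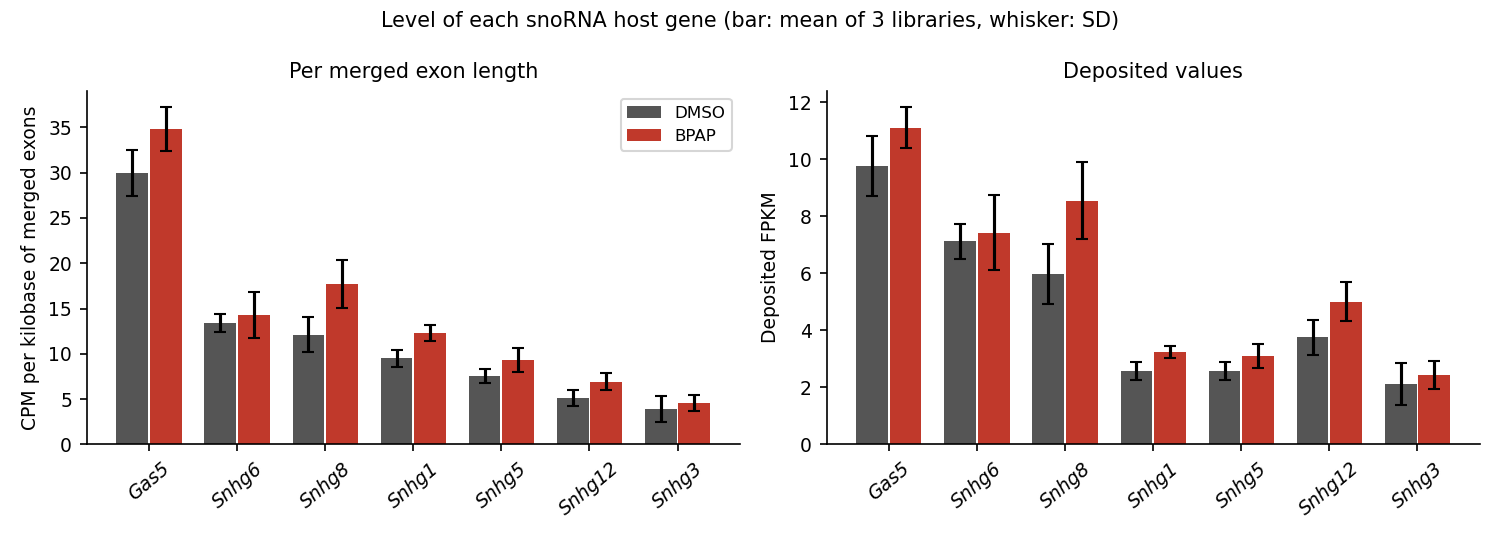
Mean level of each host gene in DMSO and BPAP (bars from 0, whiskers SD, 3 libraries each), as CPM per kilobase of merged exons on the left and as deposited FPKM on the right. In DMSO Snhg1 is above Snhg12 on the left (9.51 against 5.09) and below it on the right (2.57 against 3.75).

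The cover of a gene by annotated exons also bears on what a count holds. These exons cover 100% of the span of Snhg1, Snhg8 and Snhg12, 92.0% of Snhg5 and 91.3% of Gas5, but 53.1% of Snhg6 and 17.4% of Snhg3. How reads were counted, and on which strand, is not given in the sources used here. Spliced host RNA, unspliced precursor and intronic snoRNA sequence therefore cannot be told apart in the counts of the first 5 genes.

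Neighbouring genes within 1000 bases, looked up after the members' values were seen, were as follows. Slc3a2, which encodes the heavy chain shared by several amino acid exchangers, starts 105 bases from Snhg1 on the opposite strand, so that the pair is head to head. It measured 179, 191 and 167 CPM in DMSO and 239, 261 and 254 CPM in BPAP, without overlap. It rose 1.40-fold (log2 fold change 0.49, SE 0.09, edgeR adjusted p = 0.00315), and after the length and GC trend was taken out its value was 0.36 (adjusted p = 0.00892). Zbtb37, a zinc finger gene, runs head to head with Gas5 and overlaps it by 428 bases. It was lower in BPAP, at 57.9, 38.1 and 54.1 CPM against 73.1, 83.6 and 72.1 CPM in DMSO (log2 fold change -0.61, edgeR adjusted p = 0.0127, and -0.17 with adjusted p = 0.34 once the trend was removed). Without a strand setting, reads in the overlap could belong to either gene.

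Rcc1, the gene of a nucleotide exchange factor for Ran, overlaps Snhg3 by 5592 bases on the same strand, so counts of Snhg3 are uncertain. Rcc1 measured 26.2, 31.3 and 32.7 CPM in DMSO and 34.3, 37.3 and 37.5 CPM in BPAP (log2 fold change 0.27, edgeR adjusted p = 0.0902). Every BPAP library was above every DMSO library, though the test was not passed. Trnau1ap, 738 bases from Snhg12, had a log2 fold change of 0.20 (edgeR adjusted p = 0.204). Mcmdc2, which overlaps the end of Snhg6 by 127 bases, had at most 2 counts in a library, and Prss12 next to Snhg8 had 0 in all libraries. Gm17300, which overlaps Snhg3 by 1611 bases on the opposite strand, also had 0.

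Of 15 symbols of other noncoding host genes, 10 were in the table and 4 passed the expression filter. Their median log2 fold change was -0.11. In edgeR's test 1 rose and 0 fell, also under an unadjusted p of 0.05 and in limma-voom. In DESeq2, run without that filter, 1 rose and 0 fell of 7. Epb41l4aos rose 1.39-fold, from 12.1, 9.93 and 11.0 CPM in DMSO to 13.7, 16.1 and 15.9 CPM in BPAP (edgeR adjusted p = 0.0256). Its merged exons hold only 430 bases, and with that trend taken out its value was 0.05 (adjusted p = 0.791). The call was also lost without DMSO 2, DMSO 3, BPAP 2 or BPAP 3. Snhg17 was at 56.0, 62.4 and 60.0 CPM in DMSO and 45, 56.5 and 51.6 CPM in BPAP, with overlap (log2 fold change -0.22, adjusted p = 0.137). Without BPAP 2 its value was -0.30 and it was called lower. Snhg20 was at 28.0, 28.1 and 31.2 against 28.9, 32.2 and 27.0 CPM (log2 fold change 0.01). Snhg4, at 4.53 to 5.14 CPM in DMSO and 2.33 to 6.23 CPM in BPAP, was at -0.42 on the log2 scale (adjusted p = 0.387). Without BPAP 3 its value was -1.04 and it was called lower. It overlaps Gm28285 on the same strand. Dancr had 21 counts at most, and Snhg9, Snhg11, Snhg14, Snhg18 and Rian had 0 or 1.

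Protein-coding snoRNA hosts, mostly genes of ribosomal proteins and translation factors, moved both ways. Of 47 tested, 18 rose, 7 fell and 22 did not pass, so that 53.2% were called, and the median log2 fold change was 0.18. Rps20 rose 1.81-fold, from 178, 227 and 240 CPM to 342, 435 and 388 CPM. Rpl37 rose 1.68-fold, Rpl32 1.61-fold, and Hspa9, the gene of mitochondrial Hsp70, 1.43-fold (edgeR adjusted p = 0.00112 to 0.00212 for these 4). With the length and GC trend removed, 10 rose and 2 fell, these 4 among the former.

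The proteins that bind snoRNAs form box C/D and box H/ACA particles. Of 19 tested genes of core proteins and assembly factors 8 rose, 1 fell and 10 did not pass, and the median log2 fold change was 0.35. Gar1, Nop10 and Nhp2, which make up the H/ACA core with dyskerin, rose 1.5-fold, 1.43-fold and 1.43-fold. Gar1 measured 17.0, 17.4 and 17.1 CPM in DMSO and 25.9, 28.4 and 22.9 CPM in BPAP (edgeR adjusted p = 0.00523). The 1 that fell was Dkc1, the gene of dyskerin itself and a snoRNA host, at 16.3, 17.4 and 15.7 CPM against 22.3, 22.2 and 22.2 CPM in DMSO (adjusted p = 0.0134), named after its value was seen. It overlaps Mpp1 on the opposite strand. Nhp2l1, whose product binds the box C/D motif, rose 1.43-fold. With the trend removed 3 of the list rose and 3 fell, and Gar1, Nop10 and Nhp2 did not pass (adjusted p = 0.0762, 0.14 and 0.185). Nhp2 overlaps Rmnd5b on the opposite strand.

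NMD degrades the spliced RNA of many noncoding hosts. Of 20 genes of NMD and of the exon junction complex, 9 fell, 3 rose and 8 did not pass, and the median log2 fold change was -0.18. Upf2, which bridges the helicase Upf1 to the junction complex, was 2.07-fold lower, at 50.7, 40.1 and 52.9 CPM against 102, 94.7 and 101 CPM in DMSO (edgeR adjusted p = 0.000545). Upf3b, which links Upf2 to the junction complex, was 1.67-fold lower, the kinase gene Smg1 1.5-fold lower and the nuclease gene Smg6 1.48-fold lower, the last overlapping Srr on the opposite strand. With the trend removed 8 fell and 2 rose. The log2 fold change of Upf2 was then -0.96, and that of Smg1, whose merged exons hold 23984 bases, was -0.10 (adjusted p = 0.304).

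Of 9 stress mRNAs known as NMD targets, 6 rose, 1 fell and 2 did not pass, and the median log2 fold change was 0.78. Trib3 and Chac1 rose 3.08-fold and 3.21-fold, Gadd45a, a growth arrest gene, 2.03-fold, and Atf4 1.96-fold. Gadd45a overlaps E230016M11Rik on the opposite strand. The others that rose, named after their values were seen, were Ddit3 (1.72-fold, overlapping Mars on the opposite strand) and Atf3 (1.63-fold). Map3k14 was 1.48-fold lower, and Gadd45b and Cdkn1a, at 0.998 and 0.96 of the DMSO level, did not pass. Atf4, Trib3, Chac1, Ddit3 and Atf3 are also genes of the ATF4 stress response. Earlier results for genes of that response in these data were known when they were listed. The part of NMD or of that response in these rises was not tested. Of 15 other TOP mRNAs 6 rose and 0 fell in edgeR, DESeq2 and limma-voom, also under an unadjusted p of 0.05, and the median was 0.12. Btf3 rose 1.57-fold, and the initiation factor genes Eif3f and Eif3k 1.38-fold and 1.37-fold. With the trend removed 5 of the 15 rose, not all of them among the 6 that rose before, and the median was 0.01.

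Long noncoding RNAs without snoRNAs were listed for comparison. Of 9 tested 0 rose and 4 fell in edgeR, also under an unadjusted p of 0.05, and 0 rose and 5 fell in limma-voom. In DESeq2, run without the expression filter, 0 rose and 5 fell of 12. The median log2 fold change was -0.48 and the median merged exon length 8756 bases. Malat1, an abundant nuclear RNA, was 1.55-fold lower, at 1600, 999 and 1420 CPM in BPAP against 2000, 2030 and 2200 CPM in DMSO (edgeR adjusted p = 0.0139). Firre was 1.54-fold lower, Ftx 1.68-fold lower and Tug1 1.40-fold lower, the last overlapping Morc2a on the opposite strand. With the trend removed 2 of the 4, Malat1 and Firre, were called and the median was -0.05. Ftx was also not called without DMSO 1 or without BPAP 3. Among all 481 tested genes of long noncoding types in GENCODE, 6.86% were called higher and 9.98% lower, with a median of -0.08. The difference between the members and any of these lists was not tested.

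**Figure D4:**
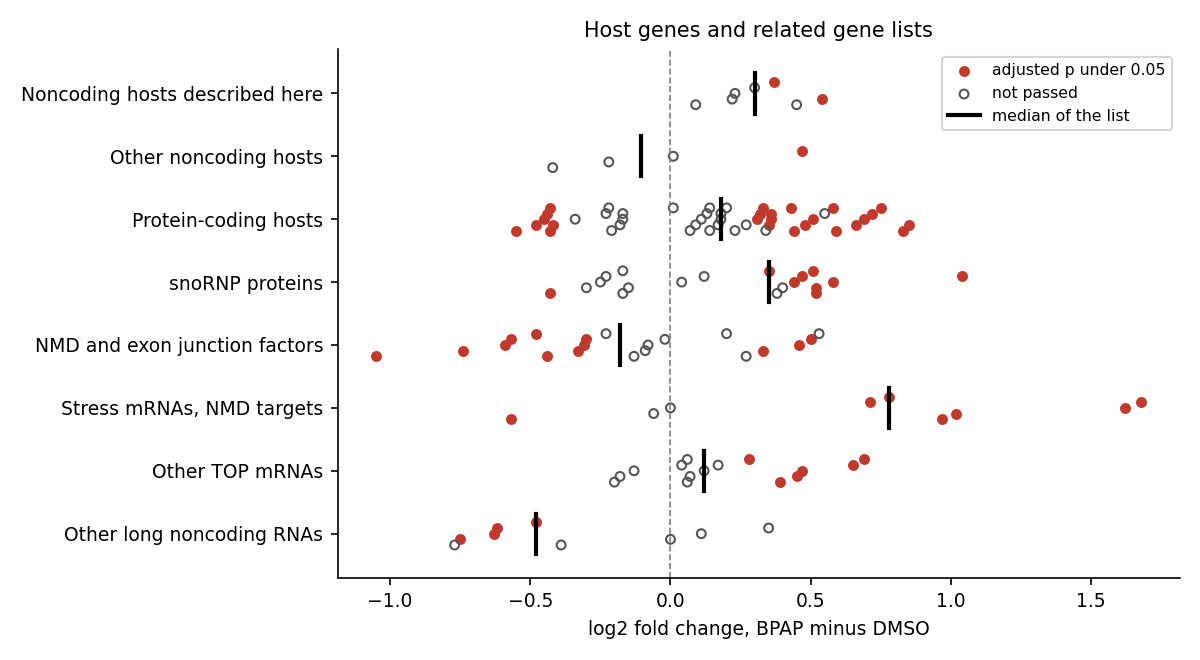
Log2 fold change, BPAP minus DMSO (horizontal axis), of every tested gene in the 7 host genes and 7 related lists (rows), with filled points past an adjusted p of 0.05 and a line at each list's median. The members lie between 0.09 and 0.54, while the NMD factors reach down to -1.05 and the stress mRNAs up to 1.68.

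By pattern over the 6 libraries, the 5 genes most like the mean centred log2 CPM of the members, among 9195 genes with a mean of at least 100 counts, were Rps27 (Pearson r = 0.998), Dus4l (0.998), Cdc123 (0.992), Cmtr2 (0.992) and Usf2 (0.989). The mean of the members itself was -0.18, -0.25 and -0.04 in DMSO libraries 1 to 3 and 0.09, 0.20 and 0.19 in BPAP libraries 1 to 3. Rps27 encodes a ribosomal protein of the small subunit and Usf2 a transcription factor. These correlations are a description over 6 libraries that share the group difference. Rps27 had a log2 fold change of 0.71 and Cdc123 one of 0.18.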

How the data were processed

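RNA-seq of 6 RAW 264.7 libraries was analysed, grouped by the treatment label, with replicate numbers from the titles. The authors deposited raw counts and FPKM values per gene and library, per the file headers. Per the submitters' processing notes HISAT2 2.0.4, StringTie 1.3.3b, edgeR and GRCm38 were used, with no role given. For strand setting, annotation release and multiply mapped reads, the sources used here give no choice of the authors.

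Counts as deposited were tested with edgeR 4.0.16 (R 4.3.3): default expression filter, TMM, robust quasi-likelihood fit, treatment as the only term, 2-sided p with Benjamini-Hochberg adjustment over all 11711 genes. Standard errors were derived from the F statistic. The fit was also run on simulated counts with the same spread for all genes, which these data need not share. No result here rests on that run. Lengths and gene types came from GENCODE M21 (34267 deposited IDs matched). GC content came from its transcripts. The length and GC alternative used lowess curves of span 0.3 as offsets over 11665 genes. Other alternatives were DESeq2 1.42.0, its size factors, upper quartile scaling, no filter, limma-voom and limma-trend (limma 3.58.1) on log2(FPKM + 1) of genes with a mean of at least 1, a replicate block and each library left out. A limit of 3 counts is 0.217 to 0.271 CPM, for counting error only.

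Named genes were the members, tested noncoding hosts, up to 4 genes per other list with the smallest p among those called, or 2 where none was, and the 5 most alike. Members and lists were chosen with earlier results of these data known. One gene that this rule names is not reported here.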

Additional observations from a re-analysis of the deposited data

How the results depend on the processing

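The number of members called was 2 in 5 of 14 alternatives, 3 in 2, 1 in 6 and 0 in 1. It was 1 with limma-trend on FPKM, 1 once the trend with exon length and GC content was taken out, and 0 to 3 with a library left out, 0 without DMSO 1. In every alternative 0 members were called lower. Upper quartile scaling added Snhg12 (adjusted p = 0.0499), as did leaving out BPAP 1 (0.0415), and leaving out BPAP 2 added Snhg5 (0.0438). Gas5 was called in 0 of 14 (adjusted p 0.0532 to 0.343), Snhg1 in 9 and Snhg8 in 10. Snhg1 was not called with limma-trend on FPKM (adjusted p = 0.0757). The direction of 5 members held in all 14, and that of Snhg3 and Snhg6 did not: with the trend removed they were at -0.05 and -0.16, and with a library left out Snhg3 ranged from -0.04 (without DMSO 2) to 0.41 and Snhg6 from -0.02 (without BPAP 2) to 0.22. The cause was not tested. Over all genes 1901 were higher, and 1244 to 1654 with a library left out, the fewest without DMSO 1. The labels give same-numbered libraries no link beyond the number, so the replicate block is only an alternative. The Pearson r of their deviations was low, at 0.10, 0.054 and 0.0098, yet 5 of 6 libraries correlated best with their own number. Whether such libraries were handled together was not tested. With the block 2 members were called, 2149 genes were higher and 2087 lower. With the trend removed, counts of related lists moved for coding hosts from 18 higher and 7 lower to 10 and 2, for snoRNP genes from 8 and 1 to 3 and 3, and for other long noncoding RNAs from 4 lower to 2. With the replicate block 2 snoRNP genes were lower. Without DMSO 1, 1 NMD factor was higher, and without DMSO 2, 5 were lower and 0 NMD target mRNAs were lower. The other noncoding hosts had 0 higher without DMSO 2, DMSO 3, BPAP 2 or BPAP 3 and with the trend removed, and 1 lower without either of those BPAP libraries. Counts of 29 to 236 per library in the 5 less abundant members limit what change they can show.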
